A study of Mus musculus with 12 samples.

Results

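The 34 genes described here make cholesterol and fatty acids or control that synthesis, and were followed in natural killer (NK) cells, which are innate lymphocytes able to kill infected and malignant cells. They were chosen by name, as genes of the SREBP pathway and of sterol and fatty acid synthesis, from 56748 gene IDs in the count files. The rule that selects them uses no measured value, but the choice was made with earlier results of these data known. All 34 had an ID. The default expression filter kept 33 of them among 16016 tested genes and removed Fads2, the delta-6 desaturase. NK cells had been sorted from mouse lymph nodes, and 12 RNA libraries fell into 3 groups of 4. The hematogenous group came from tumor-bearing nodes of a diffuse large B cell lymphoma model in which the tumor spread through blood vessels. The lymphatic group came from tumor-bearing nodes of a model in which it spread through the lymphatic system. The tumor-free group came from nodes of C57BL/6J mice without tumor. The labels name no lymphoma line, injection, age, time point or sort markers, give no strain for the tumor-bearing mice, and do not say whether nodes were pooled. They number the samples 1 to 4 without tying them to animals. The p-values therefore cover only the variation among these 12 samples, part or all of which may be technical.

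Cells build cholesterol from acetyl-CoA through the mevalonate pathway, then squalene and lanosterol, and build fatty acids from the same acetyl-CoA through malonyl-CoA. Both routes are under the SREBP transcription factors, which SCAP escorts from the endoplasmic reticulum when sterols are low and which the INSIG proteins hold back when sterols are high. SREBP2 acts mainly on sterol genes and SREBP1c on fatty acid genes, and Insig1 is itself an SREBP target. In NK cells, SREBP activity has been tied to the metabolic response to cytokines.

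Gene counts ranged from 6654215 to 43494812 per library and were lowest in 3 tumor-free libraries. Replicates correlated at 0.912 to 0.987 on log2 CPM across genes. Tumor-free pairs stood at the low end of this range, at 0.912 to 0.951. Hematogenous replicate 1 stood somewhat apart within its group, at 0.942 to 0.952 with the rest, against 0.973 to 0.982 among the other 3. Levels are given as CPM, the gene's reads relative to the library total after TMM scaling. The 9 NK markers had reads in all 12 libraries. Their summed level ran from 5825 to 7069 CPM in the hematogenous group, from 8397 to 10190 CPM in the lymphatic group and from 9778 to 11310 CPM in the tumor-free group, so the hematogenous libraries lay below both others. Summed T cell markers ran from 443 to 604 CPM in the hematogenous group, from 260 to 460 CPM in the lymphatic group and from 195 to 355 CPM in the tumor-free group. Summed proliferation markers ran from 341 to 488 CPM in the hematogenous group, from 778 to 1155 CPM in the lymphatic group and from 486 to 692 CPM in the tumor-free group. For proliferation the lymphatic libraries were highest and overlapped neither other group. The summed B cell markers ran from 346 to 482 CPM in the hematogenous group, from 431 to 828 CPM in the lymphatic group and from 336 to 435 CPM in the tumor-free group. Myeloid markers, mostly Itgax, which NK cells also express, ran from 718 to 1057 CPM in the hematogenous group, from 1213 to 1536 CPM in the lymphatic group and from 889 to 1039 CPM in the tumor-free group, where Cd14 was at 0. Stromal and endothelial markers, mostly Pecam1, summed to 162 to 174 CPM in the lymphatic group. They summed to 117 to 140 CPM in the hematogenous group and 113 to 128 CPM in the tumor-free group, both with Ccl19 at 0. Erythroid and platelet markers summed to 0.851 to 54.4 CPM in the hematogenous group and 13.15 to 38.0 CPM in the lymphatic group. In the tumor-free group they summed to 0 to 14.4 CPM, and Pf4 and Ppbp were at 0 in all 12 libraries. The part of these differences in the results that follow was not tested.

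Promoter windows of 300 bases (250 before and 50 after the RefSeq start, build GRCm38.p6) were held for 27 of the 34 genes. The windows of Insig1, Fasn, Acly and Ebp are shown because these genes changed in the hematogenous group, and that of Hmgcs1 because it is the classical sterol-responsive promoter and did not pass the test. Srebf1, with several windows, and Scd2, with none held, also changed in the hematogenous group and are not shown. Capitals mark CCAAT on either strand (ATTGG when read on the other), the element bound by NF-Y, and TCACNCCAC, a sterol response element-like motif. The windows are Insig1 at chr5:28071162-28071461 (plus strand), Fasn at chr11:120824498-120824797 (minus strand), Acly at chr11:100527951-100528250 (minus strand), Ebp at chrX:8193463-8193762 (minus strand) and Hmgcs1 at chr13:119690101-119690400 (plus strand).
Insig1: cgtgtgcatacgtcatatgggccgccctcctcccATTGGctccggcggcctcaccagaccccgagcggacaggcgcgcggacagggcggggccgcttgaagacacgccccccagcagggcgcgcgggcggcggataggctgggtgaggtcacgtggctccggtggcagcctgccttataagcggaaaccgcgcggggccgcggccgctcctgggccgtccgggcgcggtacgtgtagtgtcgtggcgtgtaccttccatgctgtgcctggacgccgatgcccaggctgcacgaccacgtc
Fasn: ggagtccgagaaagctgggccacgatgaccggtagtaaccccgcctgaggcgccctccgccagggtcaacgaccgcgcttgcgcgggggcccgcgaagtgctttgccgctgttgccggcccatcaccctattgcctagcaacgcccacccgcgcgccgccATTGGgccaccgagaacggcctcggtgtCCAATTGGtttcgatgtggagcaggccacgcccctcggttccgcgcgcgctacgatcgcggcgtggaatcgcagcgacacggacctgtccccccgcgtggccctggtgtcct
Acly: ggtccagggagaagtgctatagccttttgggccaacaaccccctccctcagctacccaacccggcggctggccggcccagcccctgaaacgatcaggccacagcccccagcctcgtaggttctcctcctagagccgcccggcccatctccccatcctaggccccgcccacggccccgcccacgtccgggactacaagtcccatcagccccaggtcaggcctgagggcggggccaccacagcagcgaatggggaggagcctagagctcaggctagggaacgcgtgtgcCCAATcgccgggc
Ebp: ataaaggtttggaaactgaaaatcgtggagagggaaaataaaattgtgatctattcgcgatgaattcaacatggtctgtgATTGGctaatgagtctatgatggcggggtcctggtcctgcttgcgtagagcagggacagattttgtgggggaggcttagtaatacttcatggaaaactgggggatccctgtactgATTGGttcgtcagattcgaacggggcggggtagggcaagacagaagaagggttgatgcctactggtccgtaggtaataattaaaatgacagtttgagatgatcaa
Hmgcs1: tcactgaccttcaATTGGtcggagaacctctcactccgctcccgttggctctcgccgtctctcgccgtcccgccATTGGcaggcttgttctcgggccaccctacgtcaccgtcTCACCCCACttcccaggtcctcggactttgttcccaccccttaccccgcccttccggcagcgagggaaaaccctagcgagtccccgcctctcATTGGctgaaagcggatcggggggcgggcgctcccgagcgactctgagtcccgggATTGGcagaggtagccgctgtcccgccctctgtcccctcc

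In these letters Hmgcs1 held 4 CCAAT elements and the only exact match to TCACNCCAC, TCACCCCAC. Variants of that sterol response element-like motif were not searched for. In the Fasn window a pair of its 3 CCAAT elements overlapped as CCAATTGG. Of all 32851 promoter windows 1.24% held TCACNCCAC on either strand, against 1 of the 36 windows of these genes. CCAAT stood in 24 of those 36 windows and in 37.4% of all windows. GGGCGG, the GC box, stood in 27 of the 36 and in 35.7% of all, and CACGTG, an E-box, in 7 of the 36 and in 7.15% of all. A match is a run of letters in this window and was not tested as a binding site.

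Levels were compared between genes per kilobase of exon (CPM per kb). Acly, which makes cytosolic acetyl-CoA from citrate, had the highest level, at 57.0 ± 4.73 CPM per kb in the hematogenous group, 73.9 ± 0.469 in the lymphatic group and 76.7 ± 4.66 in the tumor-free group (SD, n = 4 each). Scd2, a stearoyl-CoA desaturase, stood at 31.8 ± 5.23 CPM per kb in the hematogenous group, 46.9 ± 4.90 in the lymphatic group and 57.3 ± 6.59 in the tumor-free group. That placed it at rank 3 in the hematogenous group, behind the elongase Elovl5, and at rank 2 in both others. Scd1, its paralog, stood at 2.58, 4.44 and 1.60 CPM per kb in the hematogenous, lymphatic and tumor-free groups. The highest sterol pathway enzyme was Ebp, the sterol isomerase, at 13.8 CPM per kb in the hematogenous group, 22.6 in the lymphatic group and 22.2 in the tumor-free group. Some neighbours in the order could not be told apart: Srebf1 stood at 15.8 ± 2.36 and Srebf2 at 13.2 ± 2.07 CPM per kb in the tumor-free group. Fads2 was close to absent, at no more than 2.42 CPM in any library.

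**Figure D1:**
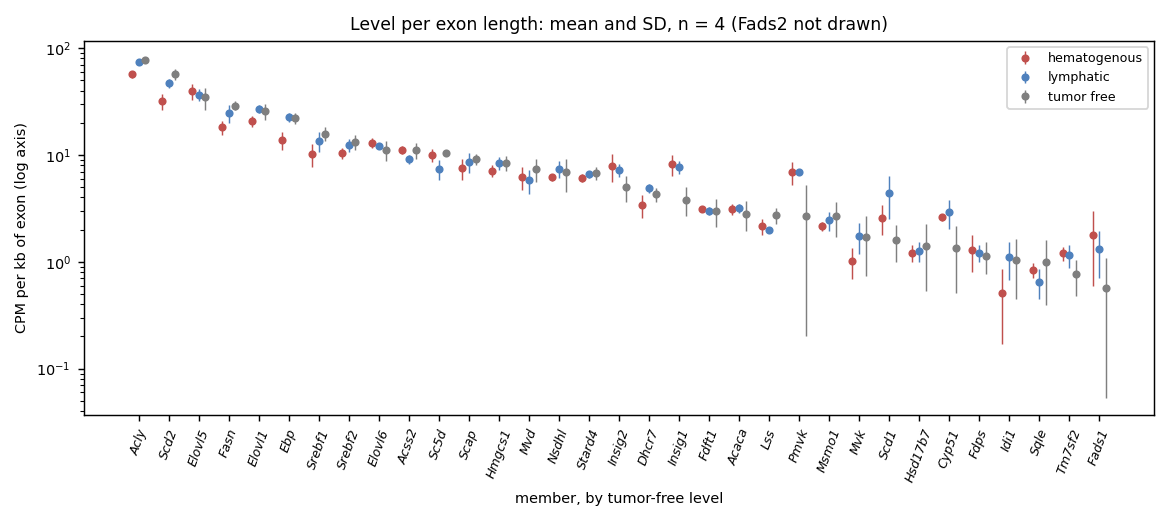
Level of 33 genes in CPM per kb of exon on a log axis, as mean and SD of 4 libraries in the hematogenous, lymphatic and tumor-free groups, ordered by tumor-free level. Acly stood highest in all 3 groups. Read against the mean, the SD was wide for Fads1 in every group, and for Pmvk in the tumor-free group but not in the lymphatic group.

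The first question was how NK cells of the hematogenous model differed from those of tumor-free nodes. Of the 33 tested genes, 6 passed edgeR's quasi-likelihood test at a Benjamini-Hochberg adjusted p under 0.05. Insig1 rose, and Ebp, Srebf1, Acly, Fasn and Scd2 fell. These 6 are 18.2% of the genes, against 16.4% of all 16016 genes in this comparison, so the total was near the background. By direction, 15.2% of these genes fell, against 6.87% of all genes, and 3.03% rose, against 9.52%. The balance over all genes depended on the setting, with 58.1% of all called genes higher in the main fit. It was 39.5% with the gene length trend removed, where 1 of the 33 genes rose and 7 fell. It was 50.7% at equal depth, 49.9% without lymphatic replicate 4 and 67.4% without tumor-free replicate 3. In these fits, in that order, 1, 1 and 3 of the 33 genes rose and 5, 5 and 4 fell. The median log2 fold change was -0.18 over the 33 genes and 0.08 over all genes tested. By ranges alone, 2 genes lay wholly above tumor free (Insig1 and Cyp51) and 4 wholly below (Ebp, Acly, Fasn and Scd2), where 11.5% and 8.01% of all genes did so. Beside these changes, edgeR called 7 of 9 NK markers and 3 of 10 proliferation markers lower in the hematogenous group. It called 3 of 8 T cell markers, 5 of 8 myeloid markers (Csf1r, Cd68, Adgre1, Cd14 and S100a8), 1 of 8 B cell markers and 2 of 5 tested erythroid and platelet markers higher. The 5 myeloid markers averaged 1.06 (Cd14) to 19.7 CPM (Csf1r) in the hematogenous group and 0 (Cd14) to 6.01 CPM (Csf1r) in the tumor-free group. The part of all these markers in the changes was not tested. In bulk samples, fewer cells of a type and less RNA per cell cannot be told apart.

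Scd2, the gene with the smallest adjusted p among the 33, had 201, 153, 196 and 145 CPM in the hematogenous libraries, 234, 284, 275 and 233 CPM in the lymphatic libraries and 311, 303, 276 and 362 CPM in the tumor-free libraries. All 4 hematogenous libraries lay below all 4 of each other group. Its log2 fold change against tumor free was -0.85 (SE 0.133, edgeR adjusted p = 0.0004). Fasn, the synthase that assembles palmitate, had 225, 200, 154 and 214 CPM in the hematogenous libraries, 207, 283, 332 and 252 CPM in the lymphatic libraries and 304, 301, 362 and 304 CPM in the tumor-free libraries. The hematogenous and tumor-free groups did not overlap, while lymphatic replicate 1 lay within the hematogenous range. The log2 fold change of Fasn was -0.68 (SE 0.145, edgeR adjusted p = 0.00365).

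Acly had 292, 337, 279 and 296 CPM in the hematogenous libraries, 387, 392, 392 and 390 CPM in the lymphatic libraries and 374, 414, 432 and 398 CPM in the tumor-free libraries. Every hematogenous library was below every other library, and the log2 fold change against tumor free was -0.43 (SE 0.104, edgeR adjusted p = 0.00857). The other fatty acid synthesis genes moved less. Acaca, the carboxylase that makes malonyl-CoA, differed by 0.15 on the log2 scale (SE 0.192, edgeR adjusted p = 0.668), and Acss2, which makes acetyl-CoA from acetate, had an adjusted p of 0.994. In all, 2 of 4 fatty acid synthesis genes fell. Among the elongases and desaturases 1 of 6 fell, Scd2. The elongases Elovl1, Elovl5 and Elovl6 had log2 fold changes of -0.31, 0.20 and 0.22, and Scd1 had 0.66 (edgeR adjusted p = 0.217), none of which passed the test. Fads1, the delta-5 desaturase, had the largest hematogenous log2 fold change of the 33, 1.61, and did not pass (SE 0.717, edgeR adjusted p = 0.137). Its level was low, at 8.54 ± 5.69 CPM in the hematogenous group and 2.74 ± 2.48 CPM in the tumor-free group. The lymphatic level was 6.40 ± 3.02 CPM. Hematogenous replicate 1 stood at 17.0 CPM and the rest of that group at 4.76 to 6.43 CPM, where tumor-free libraries reached 5.96 CPM. With no filter on low counts Fads1 passed, at an edgeR adjusted p of 0.0475.

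Among the 11 enzymes from squalene to cholesterol the test called 1, Ebp. It had 30.7, 41.1, 26.9 and 28.9 CPM in the hematogenous libraries, 50.2, 59.0, 52.5 and 46.8 CPM in the lymphatic libraries and 52.7, 46.9, 45.8 and 59.3 CPM in the tumor-free libraries. The hematogenous libraries lay below all others, with a log2 fold change against tumor free of -0.68 (SE 0.170, edgeR adjusted p = 0.0104). Hmgcs1, the synthase at the head of the mevalonate pathway, had 38.5, 31.6, 31.2 and 28.7 CPM in the hematogenous libraries, 37.2, 37.1, 33.7 and 46.2 CPM in the lymphatic libraries and 37.8, 42.6, 44.5 and 30.5 CPM in the tumor-free libraries. Its groups overlapped, and the log2 fold change against tumor free was -0.26 (SE 0.179, edgeR adjusted p = 0.360). None of the 6 mevalonate genes passed edgeR's test in this comparison, DESeq2 and voom called 0 as well, and 1 of the 6 had an unadjusted p under 0.05. Pmvk passed edgeR's test in 2 other settings, with no filter on low counts (adjusted p = 0.0198) and without tumor-free replicate 4 (adjusted p = 0.0323), where its log2 fold change was 2.02, against 1.35 with all libraries.

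Several mevalonate genes were low. Mvk, the mevalonate kinase, averaged 2.70 ± 0.864 CPM in the hematogenous group, 4.67 ± 1.47 CPM in the lymphatic group and 4.58 ± 2.63 CPM in the tumor-free group. Idi1, the isopentenyl isomerase, averaged 1.79 ± 1.20 CPM in the hematogenous group, 3.87 ± 1.49 CPM in the lymphatic group and 3.67 ± 2.08 CPM in the tumor-free group. The SE of the hematogenous log2 fold change was 0.737 for Idi1, the widest of the 33. Mvd, the decarboxylase, and Fdps, the farnesyl diphosphate synthase, had log2 fold changes against tumor free of -0.24 and 0.16, within their SEs of 0.30 and 0.47.

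Of the later sterol enzymes, Cyp51, the lanosterol demethylase, averaged 11.5 ± 0.767 CPM in the hematogenous group, 12.8 ± 3.91 CPM in the lymphatic group and 5.93 ± 3.68 CPM in the tumor-free group. Its log2 fold change against tumor free was 0.93 (edgeR adjusted p = 0.129) in the hematogenous group and 1.09 (adjusted p = 0.197) in the lymphatic group, and without tumor-free replicate 3 the hematogenous value passed, at an adjusted p of 0.0348. Sqle, the squalene epoxidase, averaged 4.62 ± 0.746 CPM in the hematogenous group, 3.61 ± 1.14 CPM in the lymphatic group and 5.52 ± 3.35 CPM in the tumor-free group. Lss, which closes the sterol rings, averaged 23.3 ± 4.05 CPM in the hematogenous group, 21.5 ± 1.16 CPM in the lymphatic group and 29.4 ± 4.77 CPM in the tumor-free group. With the gene length trend removed Lss passed in the hematogenous group, at an adjusted p of 0.034. The hematogenous log2 fold changes of Fdft1, Tm7sf2, Msmo1, Nsdhl, Hsd17b7, Sc5d and Dhcr7 against tumor free ran from -0.32 (Dhcr7) to 0.66 (Tm7sf2), and none passed. Stard4, a carrier of sterols between membranes, had -0.15 (edgeR adjusted p = 0.603).

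The controllers of SREBP moved in different directions. Insig1 had 18.8, 23.6, 31.6 and 27.1 CPM in the hematogenous libraries, 27.8, 25.9, 20.8 and 21.1 CPM in the lymphatic libraries and 11.5, 6.95, 14.6 and 14.4 CPM in the tumor-free libraries. All 8 tumor-bearing libraries lay above all 4 tumor-free ones, and the hematogenous log2 fold change was 1.08 (SE 0.255, edgeR adjusted p = 0.00702). Insig2, the second INSIG gene, had a log2 value of 0.65 against tumor free (SE 0.250, edgeR adjusted p = 0.0828) and passed without hematogenous replicate 2 or without tumor-free replicate 3, at adjusted p-values of 0.049 and 0.0489. Srebf1, which encodes SREBP1, had 54.1, 61.6, 40.5 and 72.5 CPM in the hematogenous libraries, 59.8, 67.2, 96.6 and 81.6 CPM in the lymphatic libraries and 84.9, 95.3, 103 and 72.2 CPM in the tumor-free libraries. The hematogenous and tumor-free groups overlapped only through hematogenous replicate 4 and tumor-free replicate 4, and the log2 fold change was -0.64 (SE 0.185, edgeR adjusted p = 0.0228). The Srebf1 call was lost without hematogenous replicate 1 or 3 or tumor-free replicate 2 or 3, where the adjusted p reached 0.0848, and with voom, where it was 0.0552. Srebf2, which encodes SREBP2, had 72.7, 72.4, 66.1 and 86.4 CPM in the hematogenous libraries, 85.2, 74.4, 93.6 and 103 CPM in the lymphatic libraries and 81.6, 83.0, 113 and 100 CPM in the tumor-free libraries. These ranges overlapped, and the log2 fold change of Srebf2 against tumor free was -0.35 (SE 0.147, edgeR adjusted p = 0.118). With the gene length trend removed Srebf2 passed, at an adjusted p of 0.012. Scap, the escort protein, had -0.28 (edgeR adjusted p = 0.319).

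**Figure D2:**
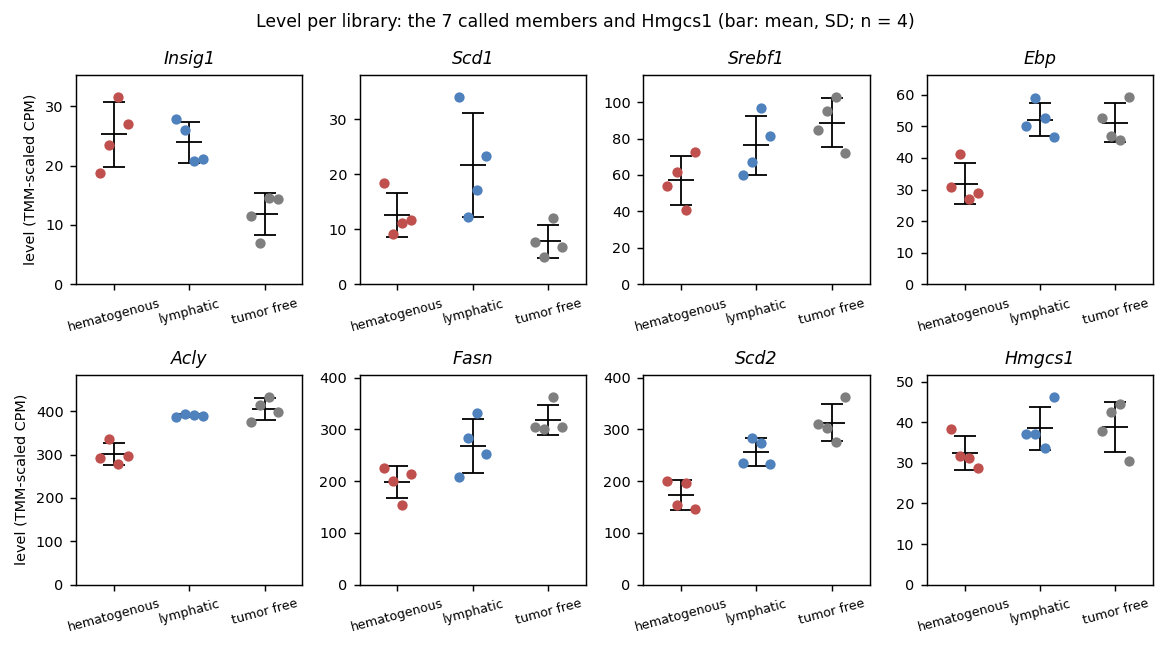
TMM-scaled CPM in each library for Insig1, Scd1, Srebf1, Ebp, Acly, Fasn, Scd2 and Hmgcs1 in the hematogenous, lymphatic and tumor-free groups, with bars for mean and SD (n = 4). Insig1 stood at 18.8 CPM or more in all 8 tumor-bearing libraries and at 14.6 CPM or less in tumor-free libraries, while Scd2 did not exceed 201 CPM in the hematogenous group.

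The second question was how NK cells of the lymphatic model differed from those of the same 4 tumor-free libraries. Here 2 of 33 genes passed edgeR's test, Insig1 and Scd1, both higher. That is 6.06% of the genes, against 2.74% of all genes called in either direction and 2.32% called higher. By ranges alone, 3 genes lay wholly above tumor free (Pmvk, Insig1 and Scd1) and 1 wholly below (Sc5d), where 7.66% and 2.24% of all genes did so. The test called 2 of 10 proliferation markers and 1 each of the B cell, myeloid, stromal and erythroid markers higher in the lymphatic group, and 1 of 9 NK markers lower. No gene of the 33 was called lower by edgeR, against 0.418% of all genes, while DESeq2 called Sc5d lower, voom called 0 genes in either direction, and 9 of the 33 had an unadjusted p under 0.05. The median log2 fold change was 0.02 over the 33 genes and 0.08 over all genes, and with library size alone the median of the 33 was -0.06.

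Insig1, at the levels given above, rose in the lymphatic group by 1.01 on the log2 scale (SE 0.254, edgeR adjusted p = 0.0363). This call was lost without hematogenous replicate 2, 3 or 4, lymphatic replicate 1, 2 or 4 or tumor-free replicate 1 or 2, each left out alone, with an adjusted p of up to 0.122. It was also lost with upper quartile scaling, library size alone, voom, the 2 compared groups alone and equal depth, with an adjusted p of up to 0.0996. Scd1 had 34.1, 12.3, 17.1 and 23.4 CPM in the lymphatic libraries and 7.72, 4.88, 12.0 and 6.76 CPM in the tumor-free libraries. The groups did not overlap, though lymphatic replicate 2 and tumor-free replicate 3 nearly met, and the log2 fold change was 1.45 (SE 0.349, edgeR adjusted p = 0.0274). In the hematogenous libraries Scd1 stood at 18.3, 9.19, 11.2 and 11.8 CPM, which overlapped both other groups. Without lymphatic replicate 1 or 4, or tumor-free replicate 1, 2 or 4, the Scd1 call was lost, with an adjusted p of up to 0.147, and with voom it was 0.137. Scd1 and Scd2 are close paralogs, and reads that align to both could be missing from either count. Reads without a unique alignment stood on a summary line of the files, at 3.85% to 6.48% of reads per library. The share of them from Scd1 and Scd2 was not tested.

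Pmvk, the phosphomevalonate kinase, was apart between the groups without passing the test. It had 10.2, 9.99, 11.0 and 16.2 CPM in the hematogenous libraries, 11.8, 12.0, 11.9 and 11.6 CPM in the lymphatic libraries and 3.16, 0, 5.16 and 10.2 CPM in the tumor-free libraries. The lymphatic libraries lay above all tumor-free ones, and the log2 fold change was 1.35 (SE 0.591, edgeR adjusted p = 0.305). Scd2, Fasn and Acly had lymphatic log2 fold changes of -0.29, -0.24 and -0.05, with edgeR adjusted p-values of 0.339, 0.512 and 0.897. Ebp had 0.03 (edgeR adjusted p = 0.972).

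**Figure D3:**
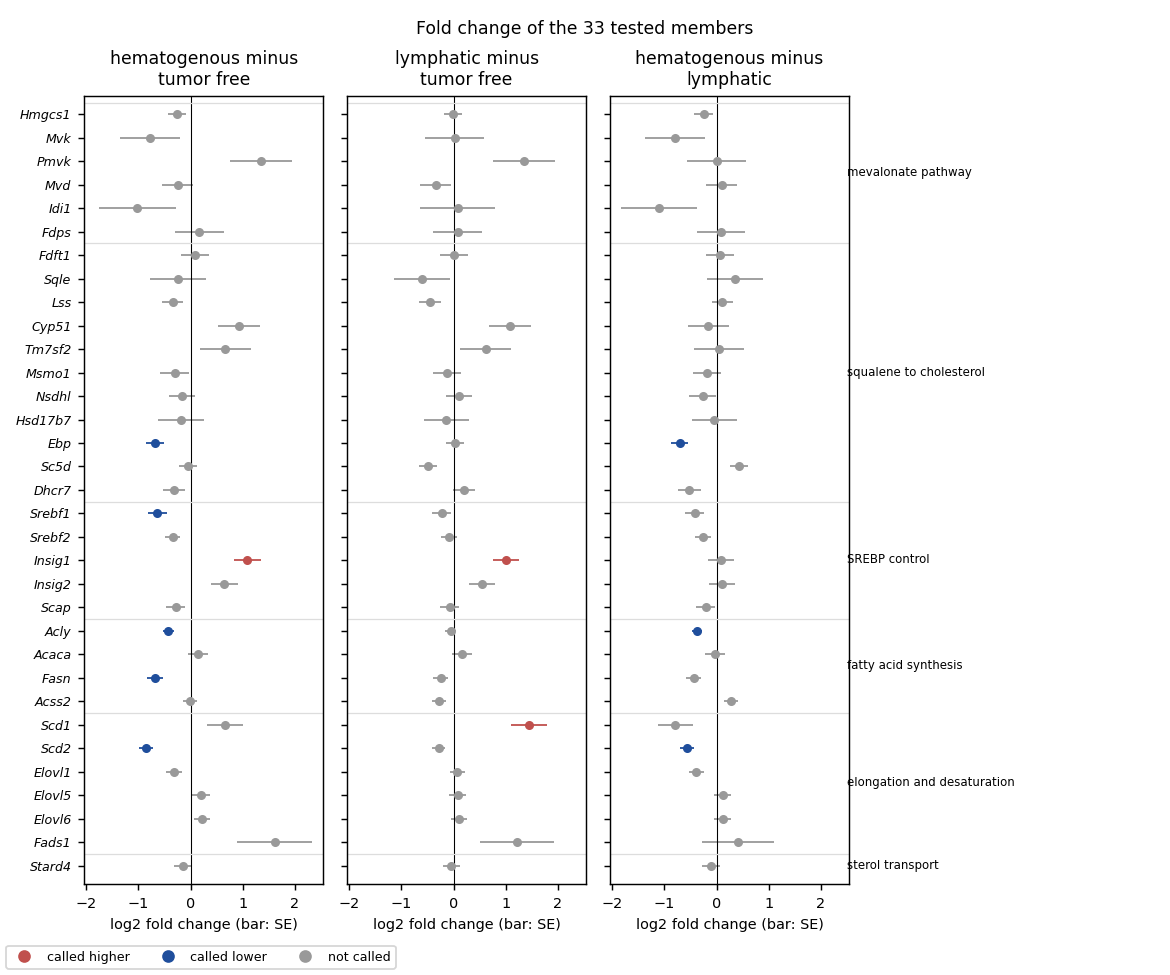
Log2 fold change with its SE for the 33 tested genes in each of the 3 comparisons, ordered by role, with genes that passed the test in colour. The called genes are 6 in the hematogenous comparison with tumor free, 2 in the lymphatic one and 3 between the models.

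Between the models, 3 of 33 genes passed edgeR's test, all lower in the hematogenous group. That is 9.09% of the genes, against 8.85% of all genes called, and 5.92% of all genes called lower, so the total was near the background. EdgeR called 0 of the 33 higher, against 2.93% of all genes, while DESeq2 called 1, Sc5d, voom called 0, and 10 of the 33 had an unadjusted p under 0.05 in either direction. By ranges, 1 gene lay wholly above the lymphatic group (Sc5d) and 5 wholly below (Ebp, Dhcr7, Acly, Scd2 and Elovl1), where 9.17% and 11.3% of all genes did so. Beside this, 7 of 10 proliferation markers, 6 of 9 NK markers, 1 myeloid and 1 stromal marker were called lower in the hematogenous group, and 1 T cell and 1 myeloid marker higher. Ebp had a log2 difference of -0.71 (SE 0.169, edgeR adjusted p = 0.0132), Scd2 -0.56 (SE 0.132, adjusted p = 0.0117) and Acly -0.37 (SE 0.104, adjusted p = 0.0284). The per-library values stand above, and the groups did not overlap for any of these 3. The Acly call was lost without hematogenous replicate 1, 3 or 4, lymphatic replicate 1, 2 or 4 or tumor-free replicate 1, 2 or 4, each left out alone, with an adjusted p of up to 0.149. It was also lost with relative log expression scaling, upper quartile scaling, library size alone, no filter on low counts and equal depth, with an adjusted p of up to 0.132. The Ebp call was lost without hematogenous replicate 3 or 4 or lymphatic replicate 2 (adjusted p up to 0.0767), and the Scd2 call without hematogenous replicate 2 or 4 (up to 0.0614). Fasn had -0.44 (SE 0.145, edgeR adjusted p = 0.0648), and passed without lymphatic replicate 1 (-0.55, adjusted p = 0.027) and with the gene length trend removed (-0.60, adjusted p = 0.0132). Scd1 had -0.79 (edgeR adjusted p = 0.177) and passed with voom (-1.14, adjusted p = 0.00894). Insig1 had 0.08 (SE 0.247, adjusted p = 0.907). The Insig1 difference was smaller than its SE. Sc5d, the lathosterol desaturase, was the gene that stood apart in the other direction, with 48.5 ± 6.39 CPM in the hematogenous group and 36.0 ± 7.32 CPM in the lymphatic group (SD, n = 4 each) and a log2 difference of 0.43 (edgeR adjusted p = 0.137).

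**Figure D4:**
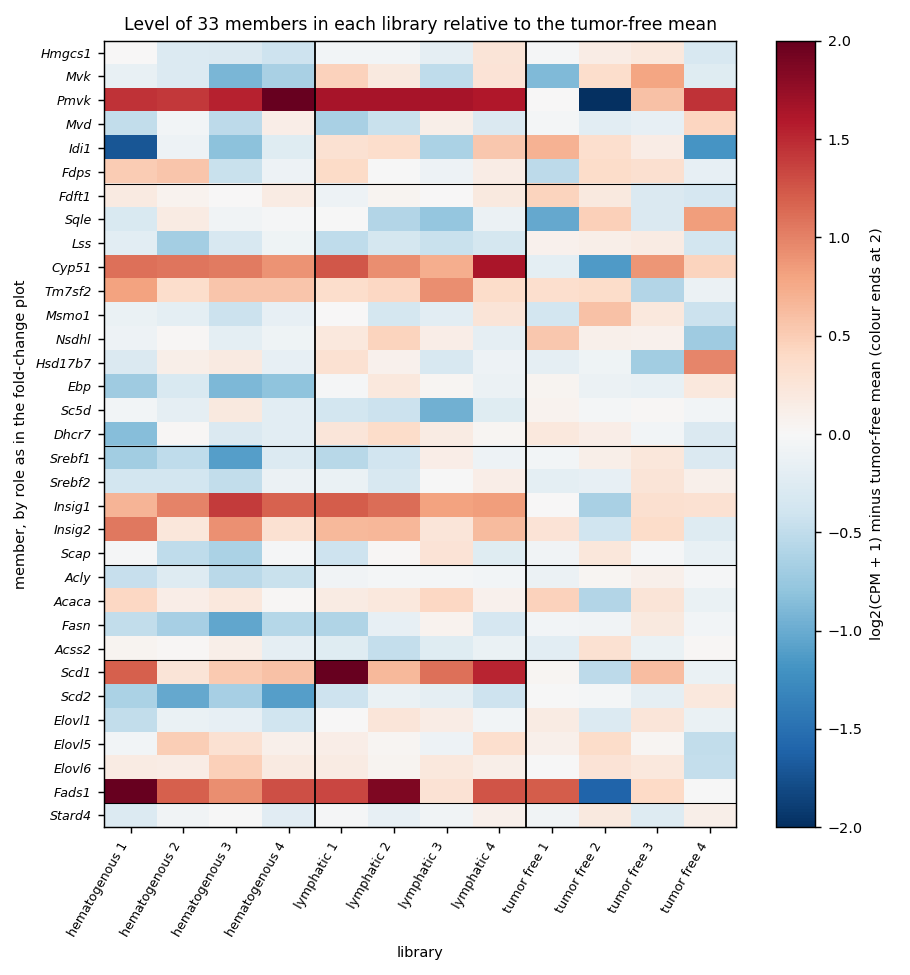
Log2(CPM + 1) of 33 genes in each library minus the tumor-free mean, with genes in order of role and libraries by group, hematogenous first. Insig1 is red in all hematogenous and lymphatic libraries, and Acly, Fasn and Scd2 are blue in all hematogenous libraries.

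Precision varied with level. The 8 genes with a mean under 10 CPM had SEs of 0.438 to 0.737 for the hematogenous comparison with tumor free. The 14 genes at 10 to 50 CPM had SEs of 0.167 to 0.405, and hold 3 of the 7 called genes. The 11 genes over 50 CPM had SEs of 0.104 to 0.192 and hold the other 4. Most of the mevalonate genes were in the lowest range, among them Mvk, Idi1, Fdps and Pmvk.

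Genes of neighbouring steps that are not in the set of 34 were read from 4 lists, 48 of whose 55 genes were tested. In the hematogenous group against tumor free, 3 rose and 8 fell, which is 22.9% against 16.4% of all genes. Abca1, the cholesterol efflux pump, rose by 0.77 on the log2 scale (SE 0.147, edgeR adjusted p = 0.00162), with 272 ± 49.7 CPM in the hematogenous group and 159 ± 23.2 CPM in the tumor-free group. Abcg1, another sterol transporter, fell by 0.57 on the log2 scale (edgeR adjusted p = 0.00785), and Npc1, which exports cholesterol from lysosomes, fell by 0.54 (adjusted p = 0.00569). Aacs, which activates acetoacetate for lipid synthesis, fell by 1.29 on the log2 scale (SE 0.240, edgeR adjusted p = 0.00139), with 12.8 ± 3.33 CPM in the hematogenous group and 31.4 ± 5.09 CPM in the tumor-free group.

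Acsl1, a long-chain acyl-CoA synthetase, rose by 1.37 (SE 0.310, edgeR adjusted p = 0.00563). The citrate carrier Slc25a1 fell by 0.84, Mid1ip1, which promotes acetyl-CoA carboxylase assembly, fell by 0.74, and Agpat1, an acyltransferase of phospholipid synthesis, fell by 0.72. Their edgeR adjusted p-values were 0.0283, 0.0108 and 0.0119. Por, the cytochrome P450 reductase, fell by 0.77 (edgeR adjusted p = 0.0178), Dhdds, of dolichol synthesis, fell by 0.52 (adjusted p = 0.048), and Rnf145, a sterol-sensing ubiquitin ligase, rose by 0.45 (adjusted p = 0.0121). The Slc25a1 call was lost without hematogenous replicate 1 or 3 or tumor-free replicate 2 or 3, and the Por call without hematogenous replicate 1 or 3 or tumor-free replicate 3. The Dhdds call was kept in 3 fits, those without lymphatic replicate 2, lymphatic replicate 4 or tumor-free replicate 2, and in the other 9 had an adjusted p of up to 0.146. It was also lost with library size alone, no filter on low counts, voom and the 2 compared groups alone, with an adjusted p of up to 0.119. With voom the Por and Slc25a1 values were 0.0522 and 0.0503. Rnf145 lost its call with the gene length trend removed, at an adjusted p of 0.157.

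In the lymphatic group edgeR called 0 of the 48 list genes against tumor free, beside 2.74% of all genes. DESeq2 called 1, Npc1, lower, voom called 0, and 6 had an unadjusted p under 0.05. Between the models 2 list genes were higher and 4 lower in the hematogenous group, 12.5% of the 48, against 8.85% of all genes. Abca1 was higher by a log2 difference of 0.81 (SE 0.146, edgeR adjusted p = 0.00246), with 272 ± 49.7 CPM in the hematogenous group and 155 ± 22.7 CPM in the lymphatic group. Acsl1 was higher as well, and Aacs, Npc2, Acsl5 and Agpat1 were lower. Each of these 5 calls was lost in at least 6 of the 12 fits that left out a library.

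At some of these loci reads may have been counted for another gene or set aside as ambiguous. In the GENCODE M21 annotation 13 of the 34 genes share exon bases with another gene, 10 with a gene on the opposite strand and 4 with one on the same strand. Among called genes this concerned Srebf1 and Scd2. Srebf1 shares 109 bases with Rai1 on the opposite strand and 66 bases with a microRNA gene on the same strand. Scd2 shares 61 bases with another microRNA gene on the same strand.

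**Figure D5:**
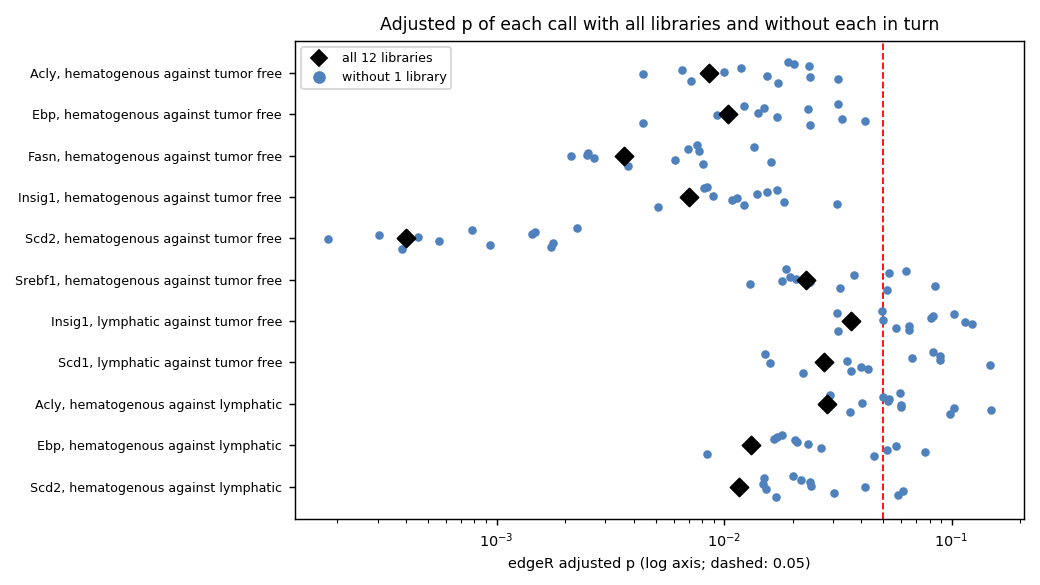
EdgeR adjusted p on a log axis of each of the 11 calls with all 12 libraries (diamonds) and without each library in turn (points), with a dashed line at 0.05. For Acly, Ebp, Fasn, Insig1 and Scd2 in the hematogenous group against tumor free, all 12 points lie below the line, up to 0.0415 for Ebp.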

How the data were processed

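RNA was measured in 12 libraries of NK cells sorted from mouse lymph nodes, 4 per group, grouped and numbered by the sample titles. Per the labels' protocols, poly(A) RNA went into stranded single-end libraries. The authors deposited raw read counts per gene. The tools were HTSeq 2.0.2, HISAT2 2.1.0, Trimmomatic 0.39 and FastQC 0.11.9, and the build was GRCm39, per the submitters' processing notes. For the annotation release, settings and strand option the entry is: not given in the sources used here. Thus reads at overlapping and antisense genes may have been counted for another gene or set aside as ambiguous.

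Symbols and exon lengths came from GENCODE M21, an older build, and matched 52073 of 56748 IDs (91.8%), which held 99.5% of the counts. The 5 summary lines that name no gene were left out. Of all reads in a library, 11.4% to 24.6% fell in no annotated feature and 1.55% to 2.12% were ambiguous. No-feature reads were 17.5% to 24.6% in the hematogenous, 13.9% to 17.4% in the lymphatic and 11.4% to 21.1% in the tumor-free group. The share assigned to genes was lowest in the hematogenous group, at 55.4% to 65.5%. It was 67.1% to 72.1% in the lymphatic group and 65.7% to 70.7% in the tumor-free group. Hematogenous replicate 1 had the most unaligned reads, 14.6%. The part of these differences in the results was not tested. Some items are not reported here.

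All 12 libraries entered 1 edgeR 4.0.16 quasi-likelihood model of group in R 4.3.3, with TMM scaling, the default filter by group and robust estimation (9 residual degrees of freedom, biological coefficient of variation 0.429). P-values were adjusted by Benjamini-Hochberg over all 16016 tested genes. SEs were computed as |log2 fold change| over the root of the F statistic. The test was tested on simulated data. The hematogenous and lymphatic comparisons share the tumor-free libraries. Values in every library are given for genes called in any comparison, for genes with groups apart, an absolute log2 fold change of at least 1 and a mean of at least 5 CPM, and always for Hmgcs1, Srebf1, Srebf2, Insig1, Fasn and Scd2. The genes and lists were chosen with earlier results of these data known. Some genes named beside these were chosen after their values were seen.

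Alternatives were other scalings and filters, DESeq2 1.42.0, voom with quality weights (limma 3.58.1), no robust estimation, fits of the 2 compared groups, a replicate block, equal depth and leaving out each library. Removal of the gene length trend was chosen after seeing the data.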

Additional observations from a re-analysis of the deposited data

Results flagged for a closer look

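Of the levels, 8 stood far from the other 3 libraries of their group, by a gap above Dixon's 95% critical value for 4 samples, as a share of the group's range. Chance alone gives about 1 such group in 20, and 102 groups were looked at. Pmvk was at 16.2 CPM in hematogenous replicate 4, against 9.99 to 11.0 in the others. Elovl6 was at 98.4 CPM in hematogenous replicate 3, against 78.3 to 80.1. Fads1 was at 17.0 CPM in hematogenous replicate 1, against 4.76 to 6.43. Tm7sf2 was at 7.01 CPM in lymphatic replicate 3, against 4.37 to 4.62. Insig2 was at 20 CPM in the same library, against 26.7 to 27.4. Lss was at 22.3 CPM in tumor-free replicate 4, against 31.0 to 32.7. Fasn was at 362 CPM in tumor-free replicate 3, against 301 to 304. Fads2 was at 0.469 CPM in that library and at 0 in the other 3 tumor-free libraries.

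Between the models the difference itself passed edgeR's test for 3 genes, with log2 fold changes, hematogenous minus lymphatic, of -0.71 for Ebp, -0.56 for Scd2 and -0.37 for Acly.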

How the results depend on the processing

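No called value changed direction under any alternative that was run. With all 12 libraries 2, 6 and 3 of the 33 genes were called for lymphatic against tumor free, hematogenous against tumor free and hematogenous against lymphatic. Leaving out each library gave 0 to 2, 5 to 7 and 0 to 3 in the same order of comparisons, and 255 to 634, 1760 to 3202 and 620 to 1572 among all genes. The lymphatic count against tumor free was 1 with upper quartile scaling, library size alone, the 2 compared groups alone and equal depth (6654215 counts per library), and 0 with voom. Among all genes, DESeq2 called 729 for lymphatic against tumor free, against 439 by edgeR, and voom called 2913 between the models, against 1417. The causes were not tested.

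The Insig1, Ebp, Acly, Fasn and Scd2 calls of the hematogenous group against tumor free held in all 12 fits without a library and in all 12 other settings. Sample numbers gave no clear pairing: the deviations of 12 same-numbered pairs correlated at -0.0727 to 0.0589. For 2 of 12 libraries, both libraries of the same number correlated higher than every library of another number. Such values cannot exclude a pairing. With the replicate block the Dhdds call against tumor free was lost, and 2, 6 and 3 of the 33 genes were called, and 362, 2518 and 1439 of all genes.

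The share of called genes that were higher in the hematogenous group than in the lymphatic group was 33.1% with TMM, 47.4% with relative log expression, 52.3% with upper quartile and 55.8% with library size alone. It was 48.3% with DESeq2 and 43.5% with voom, which change the test as well. Library size alone also moved the median of all genes between the models to a log2 value of 0.10, against -0.01 with TMM. For lymphatic against tumor free the share called higher was 84.7% with TMM, 73.2% with library size alone, 70% with DESeq2 and 66.0% with the length trend removed, and for hematogenous against tumor free 58.1% with TMM and 39.5% with that trend removed. Depth was lowest in 3 tumor-free libraries, and its effect on low genes was not tested beyond the equal-depth fit.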
